A study of Rattus norvegicus with 3 samples.

Results

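Expression of glutamate receptors and glutamate transporters was examined in the rat cerebellar cortex after cerebral infarction. The genes were chosen by family membership, as subunits of ionotropic glutamate receptors, metabotropic glutamate receptors, or transporters that carry glutamate across the plasma membrane or into synaptic vesicles. There were 30 such genes among the 38973 genes of the array, and all 30 had at least 1 probe, with 44 probes and 65 spots in all. Male Wistar rats of 9 weeks underwent transient occlusion of the right middle cerebral artery (MCAO) with an intraluminal suture, or a sham operation that only exposed the common carotid artery of the right side. Cerebellar cortex was taken on day 2. The contralateral sample was the left cerebellar cortex of the MCAO group, the ipsilateral sample was the right cerebellar cortex of the same rats, and the control group was the left cerebellar cortex of sham-operated rats. Each sample was tissue pooled from 4 rats and was read on 1 array, and MCAO rats were used only when their neurological deficit was moderate. With no replicate arrays, no test could be made and every difference is between pools of rats. Both sides came from the same 4 rats, and both ratios to control use the same control array.

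Glutamate is the transmitter of the mossy fibres that excite granule cells, and of the parallel and climbing fibres that excite Purkinje cells. AMPA, NMDA and kainate receptors are ion channels that it opens, whereas metabotropic receptors act through G proteins, and those of group III sit mainly on presynaptic terminals and restrain release. Transporters of Bergmann glia and Purkinje cells remove glutamate from the synapse, and vesicular transporters load it into synaptic vesicles.

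Signals are given as log2 of the fluorescence intensity after each array was shifted to a common 75th percentile. A log2 difference of 1 is 2-fold. Of 58717 spots, 42470 were well above background on the contralateral, 43028 on the ipsilateral and 43283 on the control array. The 75th percentile of the unscaled signal was 2103, 1614 and 2336 in the same order. Of the 30 genes, 28 were well above background with some probe on some array. All probes were so on each of the 3 arrays for 27 genes. Genes like these 27 are called measured. Grin2b and Grm5 were not well above background with any probe on any array, and Grin3a was so with 1 of its 2 probes. The error given with a ratio is the one that the scanner software assigns to the spots, with a median of 0.21 for measured members. It covers neither rats nor hybridisations. For bright probes it was nearly constant, at 0.20, and it is not a measured spread of spots. The median SD between spots of a probe was 0.046 on the contralateral, 0.047 on the ipsilateral and 0.047 on the control array, over 2249 replicated probes. Markers of cerebellar neurons were well above background on every array, among them Pcp2 and Calb1 of Purkinje cells and Gabra6 and Neurod1 of granule cells.

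No glutamate receptor or transporter was increased (log2 ratio above 1) or decreased (below -1) in the contralateral cerebellar cortex as compared to the control group, 0 of 30. At that threshold 11.2% of all 38973 genes lay outside, and 2.26% of the 22085 measured genes. In the ipsilateral cerebellar cortex the count was again 0 of 30, against 16.5% of all genes and 3.89% of measured genes. Between the sides it was 1 of 30, against 15.2% and 1.76%. This member was Grin3a, whose log2 ratio of the contralateral to the ipsilateral side was -1.15, through a probe that was not well above background on any array. The median log2 ratio of the 27 measured members to control was -0.057 contralaterally, with 20 below 0, and -0.077 ipsilaterally, with 15 below 0. All measured genes had medians of 0.012 and 0.030, with 47.6% and 44.1% of them below 0. The median between the sides was 0.021 for the members and -0.0099 for measured genes. Over the 28 members above background on some array, the ipsilateral median turned positive with normexp background correction and that between the sides negative with normexp and with 50 added to the signal. A ratio larger than its own scanner error was found for 12 of 27 members contralaterally, 10 of them lower and 2 higher than control, and 32.7% of measured genes had one, 3770 lower and 3447 higher. Ipsilaterally it was 13 of 27, 9 lower and 4 higher, against 36.6% of measured genes, 3279 lower and 4808 higher. Between the sides it was 7 of 27, 5 lower and 2 higher on the contralateral side. Of measured genes it was 22.7%, 3573 lower and 1440 higher. The plot of member ratios shows where these lie.

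**Figure D1:**
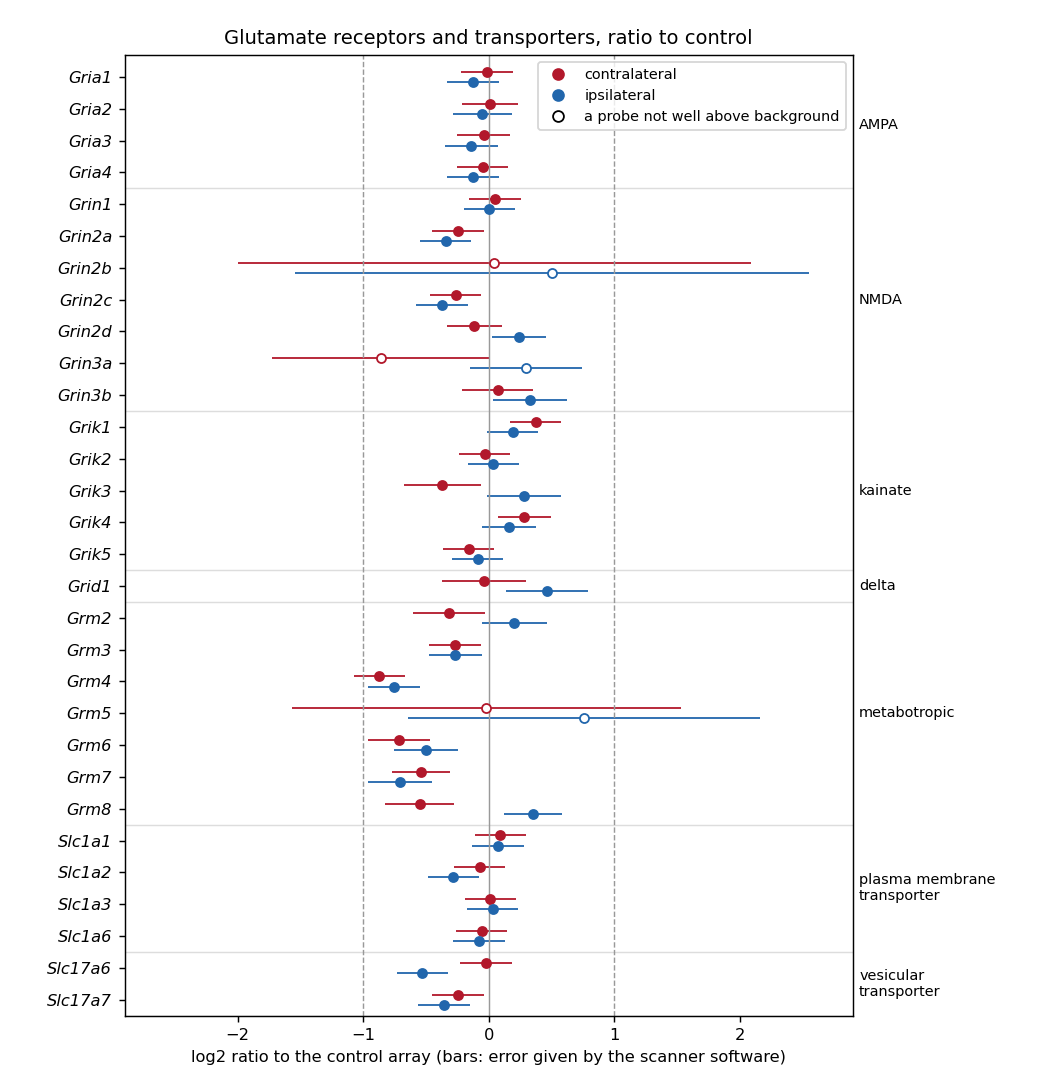
Log2 ratio to the control array (x axis) of each of the 30 genes (y axis, by class), with red for the contralateral and blue for the ipsilateral cerebellar cortex, bars for the scanner error, and open circles for genes with a probe not well above background, whose ratios give no fold. Points lie inside the dashed lines at -1 and 1, and Grm4 has the smallest contralateral ratio, -0.87.

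The AMPA receptor subunits carry most fast excitation in the cerebellum, and all 4 were measured. Their contralateral log2 ratios lay between -0.049 (Gria4) and 0.010 (Gria2), each smaller than its scanner error. Gria2, the subunit that limits the calcium permeability of these channels, had a scaled log2 signal of 5.65 on the contralateral, 5.59 on the ipsilateral and 5.64 on the control array. Gria4, which Bergmann glia express, had signals of 11.99, 11.91 and 12.04 in the same order. Gria1 differed most between the sides among them, by 0.11, with signals of 7.93, 7.82 and 7.94. For each of these genes, averaged over its probes, the 3 arrays lay within the scanner error of each other. The probes of Gria4 differed in sign, with -0.21 and -0.32 for the dimmer, each beyond its error of 0.20, and 0.11 and 0.069 for the brighter. Of the 3 probes of Gria3, 1 was beyond its error on both sides, at -0.23 and -0.44, and the others were within theirs. The dimmer probe of Gria1 was beyond its error ipsilaterally, at -0.24. On the ipsilateral side all 4 ratios were below 0, from -0.14 (Gria3) to -0.054 (Gria2), and with normexp Gria1, Gria2 and Gria3 were above 0, as Gria1 and Gria2 were with 50 added and Gria4 was by its brightest probe.

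NMDA receptors combine the obligatory subunit Grin1 with subunits that set their kinetics, and 5 of the 7 were measured. Grin2c, the subunit of mature granule cells, had a scaled log2 signal of 13.81 on the contralateral, 13.70 on the ipsilateral and 14.07 on the control array. The control array was thus the highest, and the log2 ratio to it was -0.26 contralaterally and -0.37 ipsilaterally, each with a scanner error of 0.20. Relative to the median of measured genes it was between -0.33 and -0.28, and between -0.50 and -0.40, under the 10 other ways of processing that were tried. Of the 2318 probes with mean signals between 12 and 14, 54 had a contralateral and 29 an ipsilateral ratio as low. Grin2a, the other subunit of adult granule cells, was lower than control as well, at -0.25 and -0.34. Both genes were below 0 on both sides under all 10 alternatives. Grin1 itself was at 0.049 and 0.0043, within its error of 0.20.

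The remaining NMDA receptor subunits gave less. Grin3b had a signal of 4.48 on the contralateral, 4.73 on the ipsilateral and 4.41 on the control array, and ratios of 0.073 and 0.33 with errors of 0.28 and 0.29. Its ipsilateral ratio turned negative without scaling. Grin2d differed most between the sides among the measured members of this class, with signals of 9.61, 9.96 and 9.72. Its bright probe gave -0.038 and -0.037 to control and its dim probe -0.19 and 0.52, so the ipsilateral ratio of 0.24 rests on the dim probe, and it turned negative with spike-in scaling, without scaling and by the brightest probe. Grin3a was read by 1 probe well above background, with signals of 6.88, 7.13 and 6.95 and a ratio between the sides of -0.26. For Grin2b no fold is given.

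Kainate receptors modulate both release and excitability, and all 5 genes of the class were measured. Grik1 had the largest contralateral ratio of all 27 measured members. Its scaled log2 signal was 9.20 on the contralateral, 9.02 on the ipsilateral and 8.83 on the control array. The control array was the lowest, with ratios of 0.37 and 0.19 and an error of 0.20, and the ipsilateral ratio turned negative without scaling and with spike-in scaling. Grik4 was higher than control contralaterally by 0.28. Grik3 had signals of 4.25, 4.90 and 4.62, which gave -0.37 contralaterally and 0.28 ipsilaterally with errors of 0.31 and 0.30. The contralateral ratio turned positive (0.10) with normexp and the ipsilateral one negative (-0.25) without scaling. Grik2 and Grik5 differed from control by less than their errors on both sides. Grid1, the delta receptor of the group, is an adhesion molecule that binds cerebellins. Its signals were 4.12, 4.62 and 4.16, with the ipsilateral array the highest. The ratios were -0.040 and 0.46, with an error of 0.33 for each, and the ipsilateral one was negative (-0.069) without scaling.

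Metabotropic receptors had the lowest contralateral median of the 7 classes, as reported and under all 10 alternatives. All 6 measured genes were below control contralaterally, with a median log2 ratio of -0.55, and Grm2 turned positive with normexp and Grm3 by its brightest probe. Ipsilaterally 4 of the 6 were below control, with a median of -0.38, and Grm7 was above 0 with normexp. The class median itself was below 0 under all alternatives, from -0.70 to -0.14 contralaterally and from -0.92 to -0.0097 ipsilaterally. Grm4, Grm6, Grm7 and Grm8 form group III, whose median was -0.63 contralaterally and -0.60 ipsilaterally. Over the alternatives it was from -0.79 to -0.24 and from -1.14 to -0.0097, nearest to 0 on both sides with normexp.

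Grm4 is the receptor of granule cells that restrains release from parallel fibres onto Purkinje cells. Its scaled log2 signal was 14.39 on the contralateral, 14.51 on the ipsilateral and 15.26 on the control array. The control array was the highest and both arrays of the MCAO group were low. The log2 ratio was -0.87 contralaterally and -0.76 ipsilaterally with an error of 0.20, or 0.547 and 0.592 of the control signal. The probe was printed in 10 spots, which ranged from 14.31 to 14.48 on the contralateral array and from 14.43 to 14.61 on the ipsilateral array. On the control array they ranged from 15.17 to 15.37, with no overlap with either side, and the spot SD was 0.059, 0.059 and 0.061. The spread of spots covers the hybridisation of 1 pool and no variation between rats. Among measured genes, 1.33% had a contralateral and 1.78% an ipsilateral ratio as low.

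**Figure D2:**
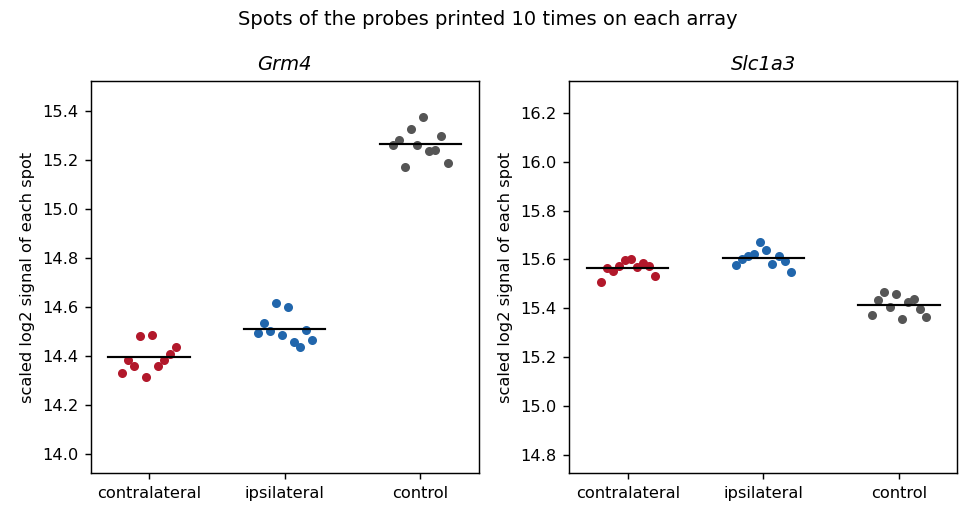
Scaled log2 signal (y axis) of each of the 10 spots of the Grm4 probe and of the Slc1a3 probe on the 3 arrays (x axis), with lines at the means. The control spots of Grm4 lie at 15.17 or above and those of both sides at 14.61 or below, whereas the spots of Slc1a3 lie between 15.36 and 15.67 on all arrays.

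Probes of this brightness varied little. Of the 716 probes with a mean signal between 14 and 16, the quartiles of the contralateral ratio were -0.0052 and 0.16, and 2 probes including that of Grm4 were at or below its contralateral ratio. Ipsilaterally Grm4 was the lowest of the 716. Its ratio lay between -1.02 and -0.84 contralaterally and between -1.29 and -0.74 ipsilaterally over the alternatives. It was past the threshold on both sides without scaling and on the ipsilateral side with spike-in scaling (-1.01). Without scaling the median of measured genes itself shifted, to -0.14 contralaterally and -0.50 ipsilaterally. The spike-in shift was -0.068 and -0.22, and that with normexp 0.051 and 0.12. With 50 added it was 0.042 and 0.12. Relative to those medians Grm4 was between -0.97 and -0.88, and between -0.92 and -0.79. Markers of granule cells, which express Grm4, had a median of 0.13 contralaterally and 0.049 ipsilaterally, both negative without scaling and the ipsilateral one also with spike-in scaling and the authors' values. They went both ways, and Fat2, at -0.13 and -0.33, and Neurod1, at -0.11 and -0.17, were below control on both sides under all alternatives, Fat2 by more than its error of 0.20 ipsilaterally. In pooled tissue, fewer cells of a type and less RNA per cell cannot be told apart.

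Grm6 and Grm7 lay below control beside Grm4. Grm6, best known from retinal bipolar cells, had a scaled log2 signal of 6.55 on the contralateral, 6.77 on the ipsilateral and 7.27 on the control array. Its ratios were -0.72 and -0.50 with an error of 0.25, and both of its probes were below control on both sides, the brighter at -0.45 and -0.25. With normexp the ratios shrank to -0.30 and -0.033. Grm7, a presynaptic receptor of low affinity for glutamate, had signals of 5.22, 5.06 and 5.76. Its ratios were -0.54 and -0.71 with errors of 0.23 and 0.25, and with normexp they were -0.17 and 0.013. Its probes differed contralaterally, with -0.14 for the dimmer, within its error of 0.23, and -0.94 for the brighter. Ipsilaterally they gave -0.53 and -0.88. In both genes the control array was thus the highest.

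Grm8, a presynaptic receptor of high affinity, had signals of 5.43 on the contralateral, 6.34 on the ipsilateral and 5.98 on the control array. The contralateral array was the lowest and the ipsilateral array the highest, with ratios of -0.55 and 0.36 and errors of 0.28 and 0.23. Its probes disagreed. The dim probe gave -1.01 and 0.79, and the bright probe gave -0.091 and -0.076, within its error of 0.21. The ipsilateral ratio was negative without scaling and by the brightest probe. Choroid plexus markers were in the same order over the arrays in sum, with 5 of 5 genes on the array and a summed scaled signal of 10092 contralaterally, 75801 ipsilaterally and 33255 in the control group. Their brightest gene, Ttr, had log2 signals of 13.27, 16.20 and 15.01, and each of them was well above background on at least 1 array. The sum is mostly Ttr, and Clic6 was not in this order, with signals of 3.70, 3.94 and 4.25. The part of these markers in the result was not tested.

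**Figure D3:**
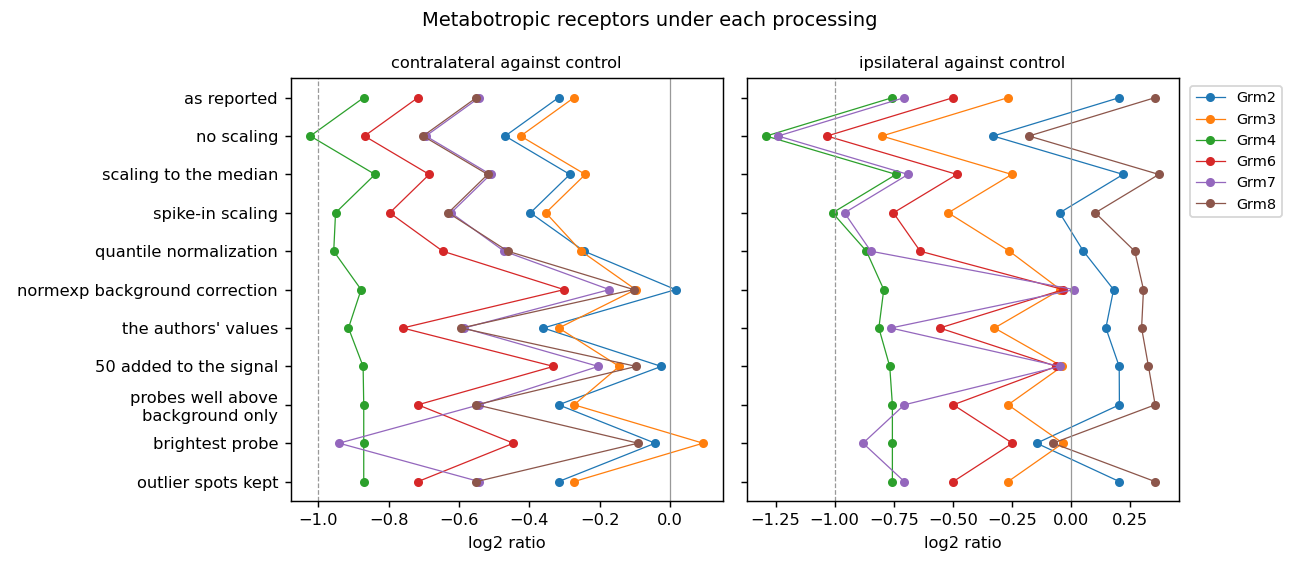
Log2 ratio to control (x axis) of the 6 measured metabotropic receptors under the processing reported and each of the 10 alternatives (y axis), contralateral on the left and ipsilateral on the right. Grm4 stays between -1.02 and -0.84 contralaterally, while the contralateral ratios of Grm6, Grm7 and Grm8 move towards 0 with normexp and with 50 added to the signal.

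The stretch of 250 bases before the start of transcription is shown for the group III receptors with an entry in the RefSeq promoter table, as these genes lay below control together contralaterally, and ipsilaterally only Grm8 was above it as reported. Without scaling and by its brightest probe Grm8 was below control there too, and with normexp Grm7 was also above it. In all, 19 of the 30 genes had an entry, and Grm4 had none. Coordinates are those of the GRCr8 assembly. Grm6 lies on the plus strand (chr10:35668753-35669002), Grm7 on the plus strand (chr4:145286476-145286725) and Grm8 on the minus strand (chr4:57687507-57687756). Capitals mark the GC box, GGGCGG or CCGCCC, which are the same motif on either strand.
Grm6: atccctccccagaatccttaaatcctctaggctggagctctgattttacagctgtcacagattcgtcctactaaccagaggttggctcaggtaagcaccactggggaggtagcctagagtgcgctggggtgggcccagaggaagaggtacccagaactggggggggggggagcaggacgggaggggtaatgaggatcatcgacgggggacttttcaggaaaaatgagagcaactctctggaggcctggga
Grm7: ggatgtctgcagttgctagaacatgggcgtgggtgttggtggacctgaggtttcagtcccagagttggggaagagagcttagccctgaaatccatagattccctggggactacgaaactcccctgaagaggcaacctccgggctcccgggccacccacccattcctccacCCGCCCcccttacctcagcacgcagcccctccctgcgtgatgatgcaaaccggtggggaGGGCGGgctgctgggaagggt
Grm8: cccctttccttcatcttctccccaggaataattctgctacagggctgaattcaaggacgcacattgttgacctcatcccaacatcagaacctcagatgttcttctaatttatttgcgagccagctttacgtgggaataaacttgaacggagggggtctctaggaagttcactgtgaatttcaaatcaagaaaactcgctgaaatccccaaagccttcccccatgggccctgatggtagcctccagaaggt
The GC box occurred 2 times before Grm7 and 0 times before Grm6 and Grm8, and 30.5% of all 33469 promoters held it in a window of this length. G and C made up 56.8% of the bases for Grm6, 62.0% for Grm7 and 47.2% for Grm8.

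Group II receptors couple to the same G proteins. Grm3, which is found in glia as well as neurons, had a signal of 6.87 on the contralateral, 6.88 on the ipsilateral and 7.14 on the control array. Its ratio was -0.27 on both sides with an error of 0.21, but its brighter probe gave 0.094 and -0.034. Grm2, a receptor of Golgi cells, had signals of 6.52, 7.04 and 6.84 and ratios of -0.32 and 0.20, with errors of 0.29 and 0.26. The contralateral ratio rests on the dim probe, at -0.59, as the bright one was at -0.042, within its error of 0.20. Its probes differed by 1.25 in the ratio between the sides, with -1.15 for the dim and 0.10 for the bright probe. The ipsilateral ratio of Grm2 was negative by the brightest probe, without scaling and with spike-in scaling. For Grm5 no fold is given.

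Dim probes as a class differed between the arrays. Among member probes above background on every array, 11 had a mean scaled log2 signal under 6. Their median log2 ratio was -0.19 contralaterally, 0.28 ipsilaterally and -0.25 between the sides. All 7536 such probes of the array had medians of -0.052, 0.14 and -0.18. For the 29 member probes at 6 or above the medians were -0.072, -0.093 and 0.045, and for all 20064 such probes 0.020, 0.012 and 0.0090. The spots of the negative control probes stood at a median log2 ratio to the control array of 0.51 ipsilaterally and 0.056 contralaterally. The part of this in the ratios of Grid1, Grik3, Grin2d, Grin3b, Grm2 and Grm8 was not tested.

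**Figure D4:**
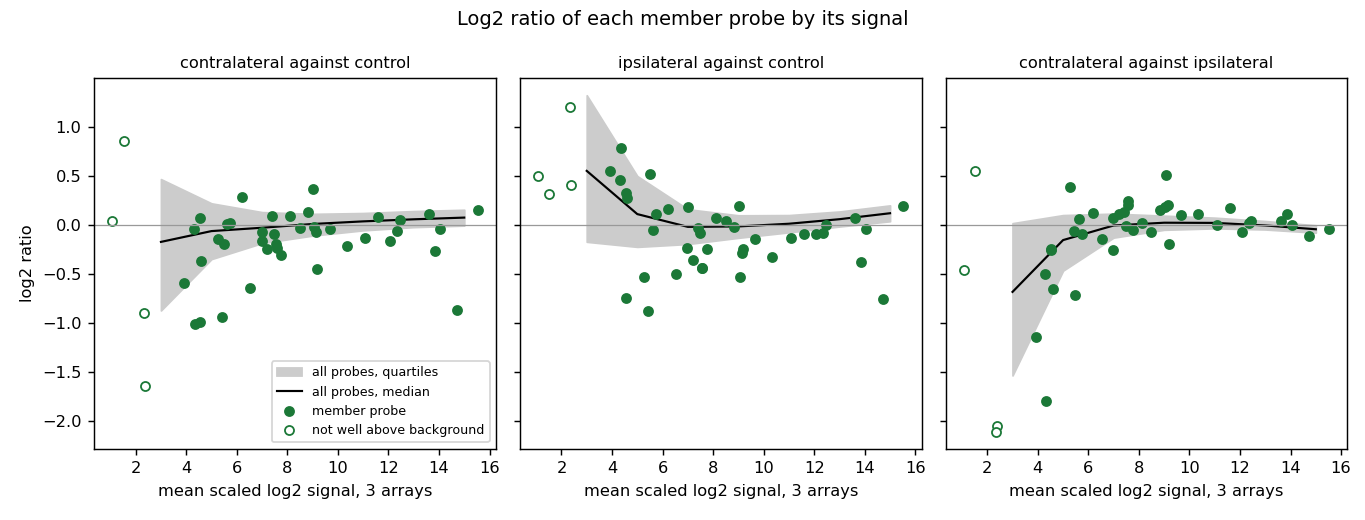
Log2 ratio (y axis) of each member probe against its mean scaled log2 signal over the 3 arrays (x axis) in the 3 comparisons. Grey bands give the quartiles and black lines the median of all probes, which is 0.55 for signals between 2 and 4 in the ipsilateral to control comparison, and open circles are probes not well above background.

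Of the 4 transporters of the plasma membrane, Slc1a1, Slc1a3 and Slc1a6 differed from control by less than their errors on both sides, and Slc1a2 was below control ipsilaterally by more than its error. Slc1a3 (GLAST), the main glutamate transporter of Bergmann glia, had a scaled log2 signal of 13.30 on the contralateral, 13.32 on the ipsilateral and 13.29 on the control array. Its bright probe, printed in 10 spots, had a mean of 15.57, 15.61 and 15.41. Its control spots, at 15.36 to 15.47, lay below those of both sides, while its other probe was at -0.13 on both sides. The gene ratios were 0.012 and 0.032 with an error of 0.20, and they were negative with spike-in scaling, without scaling, after quantile normalization and with the authors' values. Slc1a6 (EAAT4), the transporter of Purkinje cell spines, had ratios of -0.057 and -0.077, within the same error.

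Slc1a2 (GLT-1), the astrocytic transporter, had a signal of 9.18 on the contralateral, 8.97 on the ipsilateral and 9.26 on the control array. The ipsilateral array was the lowest, at -0.28 to control with an error of 0.20, and the contralateral ratio was -0.072. Both were below 0 under all 10 alternatives. Slc1a1 (EAAC1), the neuronal transporter, had signals of 8.15, 8.13 and 8.06. Its ratios of 0.092 and 0.073 were within the error of 0.20 and turned negative without scaling, the ipsilateral one with spike-in scaling too.

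Both vesicular transporters were below control on the ipsilateral side, and between the sides only Slc17a6 differed by more than its error. Slc17a6 (VGLUT2), the transporter of climbing fibres and of many mossy fibres, had a scaled log2 signal of 9.23 on the contralateral, 8.72 on the ipsilateral and 9.25 on the control array. Only the ipsilateral array was low. The arrays read RNA of the cortical tissue, and which cells the Slc17a6 RNA came from was not tested. The ratio of Slc17a6 to control was -0.53 on the ipsilateral side and -0.022 contralaterally, with an error of 0.20. The ratio between the sides was 0.51, and 1.14% of measured genes had a larger one. Among the 5899 probes with a mean signal between 8 and 10, 150 had an ipsilateral ratio as low. Relative to measured genes, the ipsilateral ratio was between -0.56 and -0.51 under all alternatives, and it was past the threshold without scaling (-1.06). The probe was read from 1 spot, and the contralateral ratio turned positive with scaling to the median and after quantile normalization.

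Slc17a7 (VGLUT1), the transporter of parallel fibres, had a signal of 7.16 on the contralateral, 7.05 on the ipsilateral and 7.41 on the control array. The control array was the highest, with ratios of -0.25 and -0.36 and an error of 0.21. Both were below 0 under all 10 alternatives. The sides differed by 0.11, within the error, and the sign of that difference turned with normexp and with 50 added. Markers of brainstem and deep nuclei, where many cells express Slc17a6, were close to background. Of the list of 7 genes, 5 were matched by symbol and none was measured. Chat, Slc5a7 and Hoxb5 were not well above background on any array. The summed scaled signal was 34.6, 48.1 and 24.3, with Tph2 the brightest at 4.20, 4.46 and 2.77.

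Partner proteins of these receptors were described as lists, and none of their measured genes was past the threshold in either comparison to control. The auxiliary subunits of AMPA and kainate receptors had 9 measured genes of 13, with a median log2 ratio of 0.13 contralaterally and 0.095 ipsilaterally, both negative without scaling and the ipsilateral one with spike-in scaling too. Cacng3, which traffics AMPA receptors, was highest contralaterally, at 0.38 with an error of 0.21, and 0.17 at the lowest over the alternatives. Neto2, the partner of kainate receptors, was lowest, at -0.47 with an error of 0.20 and at -0.46 ipsilaterally, below 0 under all 10 alternatives. Cacng2 (stargazin), the subunit that granule cells need for synaptic AMPA receptors, was at 0.13 and 0.095, within the error of 0.20.

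Postsynaptic scaffolds had 14 measured genes of 16, with medians of -0.064, positive with normexp, and 0.034, negative under 4 alternatives. Grip1, which anchors AMPA receptors, had a signal of 5.64 on the contralateral, 4.94 on the ipsilateral and 4.89 on the control array. The contralateral array was the highest, at 0.76 to control with an error of 0.25, and 0.14 at the lowest over the alternatives. The ratio between the sides was 0.70, but with normexp and by the brightest probe it was negative, -0.21 at the lowest, so that the ipsilateral array was then above the contralateral one. Cerebellins and neurexins, which bridge parallel fibres and delta receptors, had 5 measured genes of 7, with medians of -0.098 and -0.078. Cbln3 was at 0.13 contralaterally, negative without scaling, and Nrxn3 at -0.31, with errors of 0.20 and 0.22. Over the alternatives Nrxn3 came as near to 0 as -0.054.

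The list of metabotropic signalling in Purkinje cells had 8 measured genes of 9, with medians of 0.11 and 0.090, both negative without scaling and the ipsilateral one also with spike-in scaling and after quantile normalization. Itpr1, the calcium release channel downstream of these receptors, was highest, at 0.22 contralaterally with an error of 0.20, and 0.072 at the lowest over the alternatives. Gnaq, the G protein subunit that couples to them, was lowest contralaterally, at -0.23 with an error of 0.23. It came as near to 0 as -0.0043 over the alternatives. Its ipsilateral ratio was -0.46 with an error of 0.25, and turned positive with normexp and with 50 added.

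Glutamate metabolism and glutamine transport had 12 measured genes of 12, with medians of -0.056, positive with normexp and by the brightest probe, and -0.12, positive with 50 added. Glul, glutamine synthetase, which converts glutamate in astrocytes and Bergmann glia, had a signal of 13.15 on the contralateral, 13.10 on the ipsilateral and 12.57 on the control array. The control array was the lowest, with ratios of 0.58 and 0.53 and an error of 0.20, except that the ipsilateral ratio was -0.0054 without scaling. Relative to measured genes it was at least 0.51 and 0.35 under all alternatives. Slc38a5, a glutamine transporter of glia, had signals of 9.46, 9.74 and 10.06. The control array was the highest, with ratios of -0.60 and -0.31 and an error of 0.20, both below 0 under all alternatives. The plot of partner lists shows Glul and Slc38a5 at the opposite ends of this list contralaterally.

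**Figure D5:**
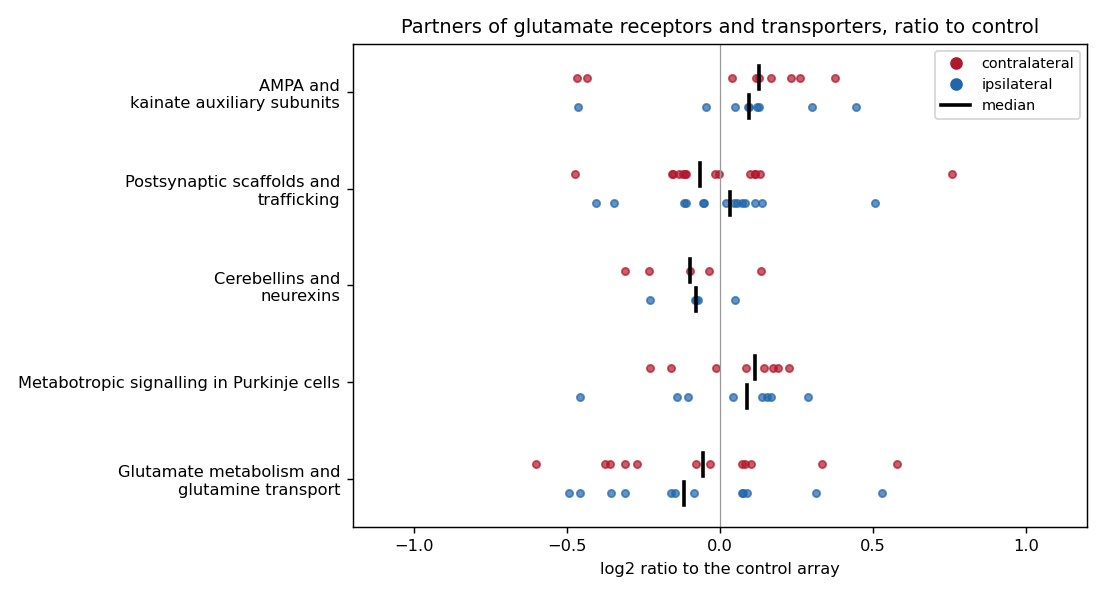
Log2 ratio to control (x axis) of each measured gene of the 5 partner lists (y axis), with red for contralateral, blue for ipsilateral and black bars for the medians. Points lie between -1 and 1, and Glul is the highest gene of the metabolism list, at 0.58 and 0.53.

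Among markers of the cell types that carry these genes, those of glia lay on both sides of control, whereas medians of the neuronal lists depended on scaling. The 5 Purkinje cell markers had a median log2 ratio of 0.14 contralaterally and 0.15 ipsilaterally, both negative without scaling and the ipsilateral one with spike-in scaling too, with Pcp2 at -0.036 and -0.039. Of the 5 granule cell markers, Etv1 was highest contralaterally at 0.27 and Fat2 lowest at -0.13. The 4 markers of inhibitory interneurons had medians of 0.092 and 0.067, which turned negative under the same settings as those of Purkinje cells, and the 5 of oligodendrocytes -0.11 and -0.040, from 0.28 for Mobp to -0.27 for Mog contralaterally. Otx2, the 1 marker of unipolar brush cells that was matched by symbol, was at -0.025 and 0.30. The first was positive with scaling to the median and by the brightest probe, and the second negative without scaling. As reported, Otx2 signals were 9.13 on the contralateral, 9.46 on the ipsilateral and 9.16 on the control array, with an error of 0.20 for each ratio. That is the order of Ttr of the choroid plexus list, though not of Clic6. The part of choroid plexus in the Otx2 signal was not tested. The 6 markers of Bergmann glia and astrocytes had medians of -0.077, positive by the brightest probe, and -0.081. They ranged contralaterally from 0.39 for Gdf10 to -0.73 for Gfap, and Gfap and Aqp4 were below 0 on both sides under all alternatives.

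Some lists of other cells and tissues stood apart beside the lower Grm4, Grm6 and Grm7. The leptomeningeal list had 4 of 4 genes measured and medians of -0.90 contralaterally and -0.49 ipsilaterally. Col1a1 was lowest contralaterally, at -1.26, whereas Dcn was at -0.032 and, ipsilaterally, at 0.23 with an error of 0.20, negative there without scaling and with spike-in scaling. The list's summed scaled signal was 5481, 7714 and 10054 in the usual order of contralateral, ipsilateral and control, with Col1a2 the brightest. Of the 3 erythroid genes, all were on the array and summed to 1117, 1004 and 2070, and Hba-a1, the brightest, was at -0.88 and -1.03. The choroid plexus list had medians of -0.71 and 0.80 over 4 measured genes. The 5 microglial genes had medians of 0.28 and 0.083 and summed to 6508, 8238 and 4960, with C1qa the brightest, and the ipsilateral median was negative without scaling and with spike-in scaling. They did not go 1 way, with 3 of 5 above 0 contralaterally. Cx3cr1 was highest, at 0.78 and 1.27, and Aif1 lowest, at -0.29 and -0.097, below 0 under all alternatives. In the forebrain list of 6 genes, 3 were measured, with medians of 0.52 and 0.056, the second of which the authors' values, spike-in scaling and the lack of scaling turned negative. Nrgn was at 1.83 and -0.21, the second positive with normexp and with 50 added, and Tbr1 was not well above background on any array. The summed scaled signal of the list was 2754, 2604 and 2195, with Bhlhe22 the brightest. The part of these markers in the ratios of glutamate receptors was not tested.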

How the data were processed

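RNA of the contralateral, ipsilateral and control samples was hybridised to 1-colour Agilent arrays, all on 1 slide. The authors deposited the intensity of each spot as given by Agilent Feature Extraction 12.1.0.3, which subtracts background and corrects spatial trends. A second table that the authors deposited holds intensity values equal to the processed signal times 1 factor per array (1.12, 1.45 and 1.04). Whether that factor is the normalization named in the methods is not given in the sources used here.

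From these, log2 signals were shifted to a common 75th percentile over spots that are not controls, 759 outlier spots were left out, and spots of a probe and then probes of a gene were averaged. Symbols came from the RefSeq table of GRCr8 for 17622 of 39957 accessions, and the others were kept as accessions. The scanner error of a ratio is the root of the summed squared spot errors, averaged over spots and probes. The threshold was that of the methods. The small number of arrays limits the precision.

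Members and lists were chosen with earlier results of these data known. Named in full were, per class, the measured members at both ends of the contralateral ratios and that with the largest difference between the sides, members past the threshold, members whose probes differ by over 1, and members not above background. Of each list of partner genes, the measured genes at both ends of the contralateral ratios were named. The other members, the counts by scanner error, and further list genes (Cacng2, Pcp2, Cx3cr1, Nrgn and the remaining markers) were added after their values were seen. Lists covered auxiliary subunits, scaffolds, cerebellins and neurexins, metabotropic signalling, glutamate metabolism, and markers of 12 cell types or tissues. Some of their genes, among them Shisa9, Gsg1l, Eomes and Hoxa5, were not matched by symbol. As many accessions had no symbol, these genes may still be on the array. A few genes that these rules name are not reported here.

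Processing was varied in 10 ways: unscaled signals, scaling by array medians, scaling by 8 spike-in probes, quantile normalization, background correction by normexp (offset 50, on median signals, as no mean signal was given), the authors' values, 50 added to the signal, only probes well above background on all arrays, the brightest probe, and outlier spots kept. The scaling, averaging and counting were tested on simulated data. Software was R 4.3.3 with limma 3.58.1 and Python 3.11.15 with numpy 2.4.6, pandas 2.3.3 and matplotlib 3.10.9.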

Additional observations from a re-analysis of the deposited data

Results flagged for a closer look

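Grm8 had a log2 ratio to control of -0.55 contralaterally and 0.36 ipsilaterally, opposite in sign and each larger than its scanner error of 0.28 and 0.23. Whether the sides differ was not tested, since each was 1 pool. The dim probe of Grm8 carried both values, and its bright probe gave -0.091 and -0.076.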

How the results depend on the processing

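The count of members past the threshold was 0 contralaterally and ipsilaterally and 1 between the sides. Without scaling it was 2 contralaterally (Grm4 and Grin3a), 4 ipsilaterally (Grm4, Grm6, Grm7 and Slc17a6) and 0 between the sides, and the member median was -0.60 ipsilaterally and 0.40 between the sides. Medians here are over the 28 members above background on some array, with -0.066 ipsilaterally and 0.020 between the sides under the processing reported. With normexp they were 0.033 and -0.037, and with 50 added -0.0020 and -0.070, so that they changed sign other than ipsilaterally with 50 added. With spike-in scaling the count was 1 ipsilaterally (Grm4) and 0 between the sides, with an ipsilateral median of -0.32. By the brightest probe it was 1 ipsilaterally and 1 between the sides, in both cases Grm5, below background, while Grin3a was at -0.26 between the sides. Between the sides it was also 0 after quantile normalization, with normexp, with 50 added, and over probes well above background on all arrays. Beyond the constant that a scaling adds to every gene, the cause was not tested. Of 840 member values under the alternatives, 718 moved by less than the scanner error and 122 by more, 55 of these without scaling, 21 with spike-in scaling, 18 with normexp, 13 with 50 added and 12 by the brightest probe. No paired analysis was possible because each group had 1 array. Signal over background limits what dim probes show. With normexp the contralateral ratios of Grm6, Grm7 and Grik3 lay nearer to 0, while the ipsilateral ratios of Grik3 and Grin3b lay further from it, at 0.46 and 0.55.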

Other observations

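The glial genes beside the transporters did not move as 1 group. Aqp4, the water channel of astrocyte endfeet, had scaled log2 signals of 14.70 on the contralateral, 14.80 on the ipsilateral and 15.25 on the control array. Its ratios were -0.55 and -0.45 with an error of 0.20. Gfap was at -0.73 and -0.66, whereas Gdf10, a marker of Bergmann glia, was at 0.39 and 0.27, negative on the ipsilateral side without scaling. S100b and Hopx were within their errors on both sides, as was Slc1a3. Aqp4 and Gfap were below 0 on both sides under all alternatives. Glud1, glutamate dehydrogenase, was at -0.36 on both sides, in contrast to Glul, and Slc38a2 and Slc38a3, both glutamine transporters, were at 0.33 and -0.38 contralaterally. These genes were chosen after their values were seen.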
